A study of Mus musculus with 6 samples.

Results

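Messenger RNAs of 40 genes of endoplasmic reticulum (ER) stress and of the ATF4 amino acid response were followed in mouse osteoblasts treated with corticosterone, the main glucocorticoid of mice. The genes were chosen by name from these pathways, with earlier results of these data known. All 40 were found among the 24016 genes of the deposited table. They fall into an ATF4 arm of 21 genes and an ER arm of 19 genes. The ATF4 arm holds *Atf4*, its target genes of amino acid supply, and other factors and targets of the same stress response. The ER arm holds the sensors, chaperones and degradation factors of the ER. At a limma adjusted p under 0.05, the ATF4 arm had 9 genes higher and 1 lower after corticosterone, with *Psph* (2.55-fold) and *Slc7a3* (2.04-fold) rising most. Of all genes, 8.49% were higher and 8.2% lower. Among genes with a mean normalized count of at least 100, 17.1% were higher and 15.5% lower. Of the 40 genes, 36 reached that mean. In the ER arm 3 genes were higher and 1 lower, and 11 of its 12 chaperones and folding factors did not pass the test.

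The cells were MC3T3-E1 subclone 4, a single wild-type clone of the mouse calvarial preosteoblast line, so that the replicates are cultures of 1 clone and not animals. Osteoblast differentiation took 6 days in 10 mM β-glycerophosphate and 50 μg/ml ascorbic acid in all cultures. Then, for 24 h, 3 cultures received vehicle and 3 received 100 nM corticosterone. A protocol text that is the same for all 6 samples also lists 10 nM calcitriol, the active form of vitamin D, which is taken here as present in both groups. The series calls the 3 cultures of each group biological replicates. RNA was sequenced in bulk, in which fewer cells of a type and less RNA per cell cannot be told apart.

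The unfolded protein response is the programme by which cells adjust the folding capacity of the ER to the load of secreted protein. Its sensors PERK, IRE1 and ATF6 lie in the ER membrane. ATF6 and the spliced form of XBP1 raise chaperone and degradation genes, while PERK phosphorylates the translation factor eIF2α, which slows translation at large but favours that of ATF4. Other eIF2α kinases, among them GCN2 for lack of amino acids, feed into the same step, so that ATF4 and its target genes of amino acid synthesis and uptake can rise without chaperones. Osteoblasts secrete large amounts of collagen and depend on both programmes, and ATF4 is also known as a regulator of osteoblast differentiation. Gene counts show neither the translation of *Atf4* nor the splicing of *Xbp1*.

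The DNA elements for which these programmes are known were searched in promoters. The arms were drawn up from known genes of the same programmes, so a difference between them in these elements describes the lists and tests nothing. The search used no measured values, but the elements were chosen with earlier results of these data known. RefSeq promoters of GRCm38.p6, each from 250 bases before to 50 bases after a transcription start, were held for 34 of the 40 genes and not for *Cth*, *Slc7a5*, *Slc7a3*, *Atf6*, *Manf* and *Hyou1*. The ER stress response element (ERSE), bound by ATF6 and XBP1 together with NF-Y, was searched on both strands as CCAAT and CCACG with 9 bases between them. It was present in 7 of 16 genes of the ER arm and 0 of 18 of the ATF4 arm, against 0.137% of all 27025 genes with a promoter. The matches of the 7 genes are shown here 5′ to 3′ along the strand that carries them, with the fixed letters in capitals and the distance of the element's first base in the promoter from the start.
*Hspa5*, 65 bases before the start: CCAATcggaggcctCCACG
*Pdia6*, 98 bases before the start: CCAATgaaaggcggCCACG
*Dnajc3*, 105 bases before the start: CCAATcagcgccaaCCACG
*Canx*, 145 bases before the start: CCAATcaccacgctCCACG
*Hsp90b1*, 212 bases before the start: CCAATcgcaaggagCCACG
*Hsp90b1*, opposite strand, 107 bases before the start: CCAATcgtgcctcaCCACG
*Creld2*, opposite strand, 126 bases before the start: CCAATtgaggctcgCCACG
*Calr*, opposite strand, 162 bases before the start: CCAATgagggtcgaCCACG

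The core of the C/EBP-ATF response element (CARE), at which ATF4 pairs with C/EBP factors, was searched on both strands as TTNCATCA. It was present in 5 of 18 genes of the ATF4 arm and 1 of 16 of the ER arm, against 4.51% of all genes with a promoter. The 1 gene of the ER arm was *Herpud1*, which also held the only match to ERSE-II among the 34 genes with a promoter (ATTGG and CCACG with 1 base between them, in 0.0444% of all genes). The unfolded protein response element (TGACGTGG) matched none of the 34 and 0.714% of all genes. ATTGG is the reverse complement of CCAAT, so ERSE and ERSE-II share letters, but no matches overlapped in these promoters.
*Slc7a11*, 47 bases before the start: TTGCATCA
*Slc7a11*, opposite strand, 66 bases before the start: TTGCATCA
*Asns*, opposite strand, 23 bases before the start: TTTCATCA
*Pycr1*, opposite strand, 103 bases before the start: TTGCATCA
*Chac1*, 193 bases before the start: TTGCATCA
*Trib3*, 14 bases after the start: TTACATCA
*Herpud1*, 112 bases before the start: TTGCATCA
*Herpud1*, ERSE-II, 52 bases before the start: ATTGGgCCACG

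The stretches before the start of 4 of these genes show the elements in place, with the letters of the motifs in capitals and written along the gene's own strand, so that a match on the opposite strand appears as its reverse complement. They are *Dnajc3*, the 1 gene with an ERSE that passed the test, *Creld2*, which has the same element and did not pass, *Herpud1* with a CARE core and an ERSE-II, and *Slc7a11* with CARE cores on both strands. Each stretch ends before the first annotated exon.
*Dnajc3*, chr14:118937682-118937931, plus strand: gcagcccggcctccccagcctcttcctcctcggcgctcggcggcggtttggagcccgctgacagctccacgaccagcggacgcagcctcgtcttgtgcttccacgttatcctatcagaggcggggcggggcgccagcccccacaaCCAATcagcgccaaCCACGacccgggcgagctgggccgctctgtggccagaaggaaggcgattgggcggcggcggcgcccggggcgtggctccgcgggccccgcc
*Creld2*, chr15:88819396-88819645, plus strand: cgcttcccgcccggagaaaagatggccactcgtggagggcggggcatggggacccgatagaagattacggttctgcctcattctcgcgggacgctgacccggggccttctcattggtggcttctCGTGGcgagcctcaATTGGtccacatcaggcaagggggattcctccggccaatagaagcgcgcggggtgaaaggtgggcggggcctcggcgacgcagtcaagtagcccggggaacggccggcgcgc
*Herpud1*, chr8:94386179-94386428, plus strand: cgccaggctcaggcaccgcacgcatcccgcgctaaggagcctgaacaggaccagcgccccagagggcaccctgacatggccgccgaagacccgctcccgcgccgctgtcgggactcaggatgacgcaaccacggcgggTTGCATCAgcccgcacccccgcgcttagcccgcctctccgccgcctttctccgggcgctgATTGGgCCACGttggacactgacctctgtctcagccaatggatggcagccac
*Slc7a11*, chr3:50443615-50443863, minus strand: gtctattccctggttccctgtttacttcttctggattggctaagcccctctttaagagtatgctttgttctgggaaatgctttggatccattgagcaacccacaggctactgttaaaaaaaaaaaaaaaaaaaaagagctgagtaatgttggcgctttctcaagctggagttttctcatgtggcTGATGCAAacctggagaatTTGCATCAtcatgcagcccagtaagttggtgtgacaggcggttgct
Of the 7 genes with an ERSE, 1 was higher and 6 did not pass the test, with a median log2 fold change of 0.02. Of the 6 genes with a CARE core, 1 (*Asns*) was higher and 5 did not pass, with a median of 0.05. These shares were 14.3% and 16.7%, against 16.7% of all genes and 32.6% of genes with a mean normalized count of at least 100. The genes with an ERSE all had a mean of at least 747, while the lowest mean of those with a CARE core was 3.89. With 7 and 6 genes the shares are descriptions only. A match is a description of these letters and not a measured binding site.

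The libraries held 16020401 to 25638645 reads on genes, and the corticosterone libraries were all shallower than the vehicle libraries. The deposited values are read counts divided by 1 factor per library (0.782 to 1.30) and are called normalized counts here. A count of 3 reads corresponds to a normalized count of 2.32 to 3.84. The known glucocorticoid targets *Tsc22d3* and *Fkbp5* rose by log2 fold changes of 1.49 and 2.46. Of 10 osteoblast markers, all were in the table, and 7 were lower and 1 higher after corticosterone. The summed osteoblast markers ranged from 1357910 to 1404040 with vehicle and from 1182820 to 1238350 with corticosterone. The sum mostly follows the most abundant markers, since the means of the 10 genes ran from 5.23 to 673997. Their log2 fold changes ran from -1.87 to 1.02.

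Calls were frequent in these data. Of all 24016 genes, 16.7% had an adjusted p under 0.05 in limma, 8.49% higher and 8.2% lower, and 2.78% also passed an absolute log2 fold change of 1, the study's threshold. As counts these were 2040 higher and 1970 lower genes, which became 1349 and 2595 with upper-quartile scaling and 1703 and 2521 with scaling to the same total. The groups did not overlap in 29.6% of genes. The corresponding shares were larger among genes with more reads. Of the 10558 genes with a mean normalized count of at least 100, a limit chosen after the values were seen, 32.6% were called, 17.1% higher and 15.5% lower, and 49% did not overlap. Against this, 36 of the 40 genes reached that mean, of which 14 were called (38.9%). The share was 58.8% (10 of 17) in the ATF4 arm and 21.1% (4 of 19) in the ER arm. The median log2 fold change was 0.12 over the 21 genes of the ATF4 arm and 0.02 over the 19 of the ER arm, against -0.01 over all genes. Other scalings moved the median of all genes as well. The medians of the ATF4 arm, the ER arm and all genes were 0.06, -0.05 and -0.08 with upper-quartile scaling, 0.08, -0.02 and -0.05 with scaling to the same total, and 0.11, -0.03 and -0.02 with quantile normalization. Because the genes were listed with earlier results of these data known, these counts carry no test.

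**Figure D1:**
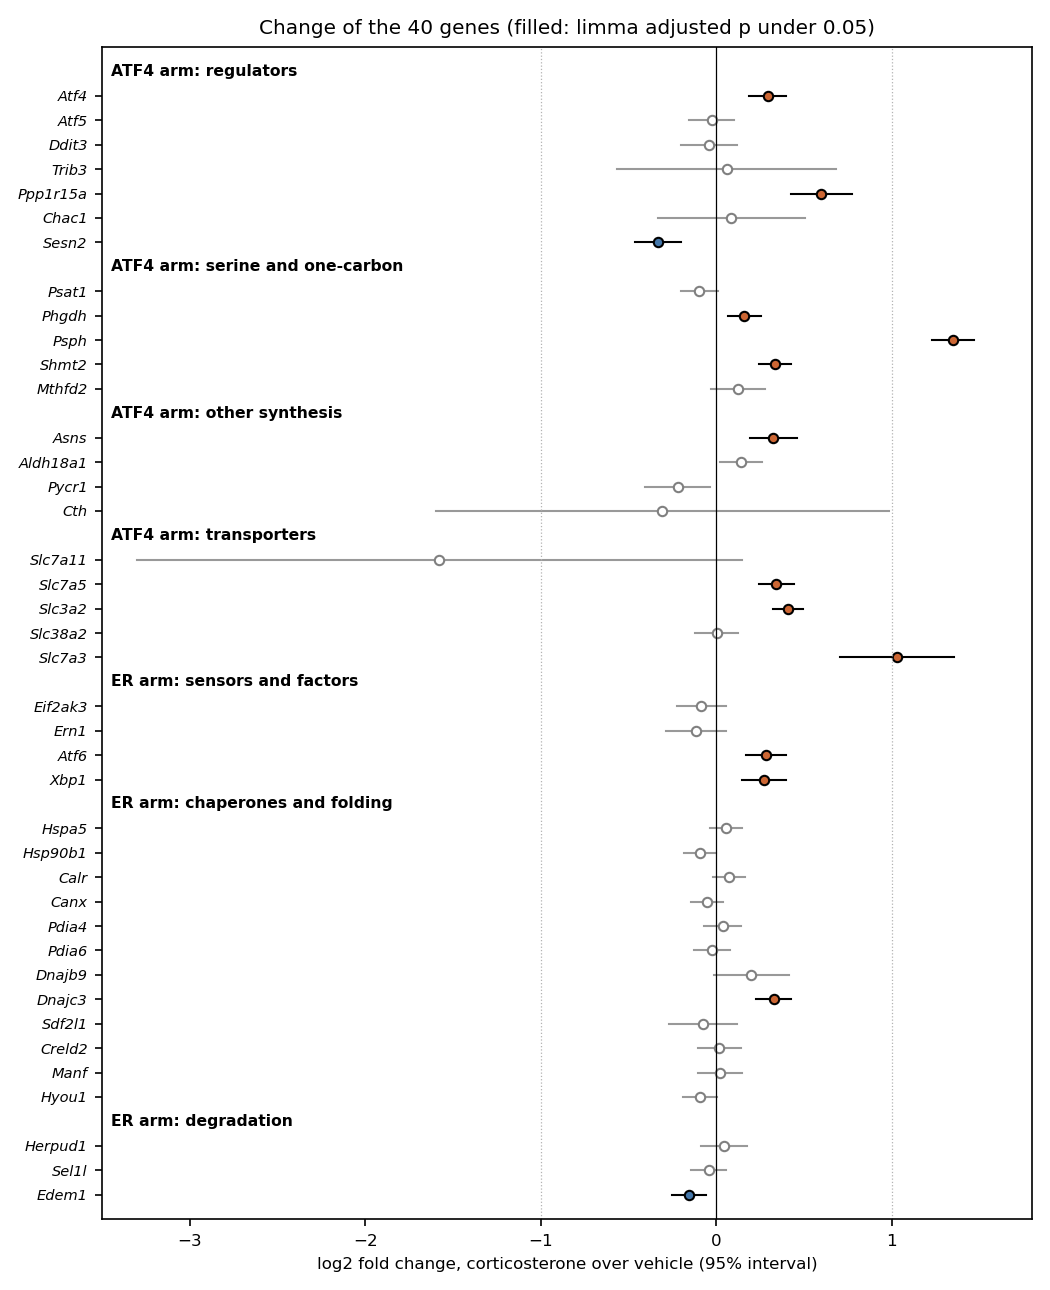
Log2 fold change of each of the 40 genes, corticosterone over vehicle (3 libraries each), on the horizontal axis with its 95% interval from limma. Filled points have an adjusted p under 0.05 (red higher, blue lower), dotted lines mark a log2 fold change of 1 in either direction, and *Psph* at 1.35 and *Slc7a3* at 1.03 are the called genes beyond them.

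Levels were compared per length, as normalized count per kilobase of exon. The length merges all annotated exons of a gene, so the order also depends on the annotation. The most abundant members were ER chaperones and folding factors. With vehicle, *Calr* had 4061 ± 199, *Hsp90b1* 2729 ± 148 and *Hspa5* 2481 ± 135 per kilobase (SD, n = 3), and the SDs of *Hsp90b1* and *Hspa5* overlapped. *Canx*, *Pdia4* and *Pdia6* followed. *Atf4* came next at 1181 ± 71.1 per kilobase, with *Slc3a2* at 1128 ± 24.7 and *Phgdh* at 1124 ± 24.0, which did not differ beyond their SDs. At the low end, *Trib3* reached 12.0 ± 2.14 per kilobase, *Cth* 2.38 ± 0.196 and *Slc7a11* 0.420 ± 0.129.

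**Figure D2:**
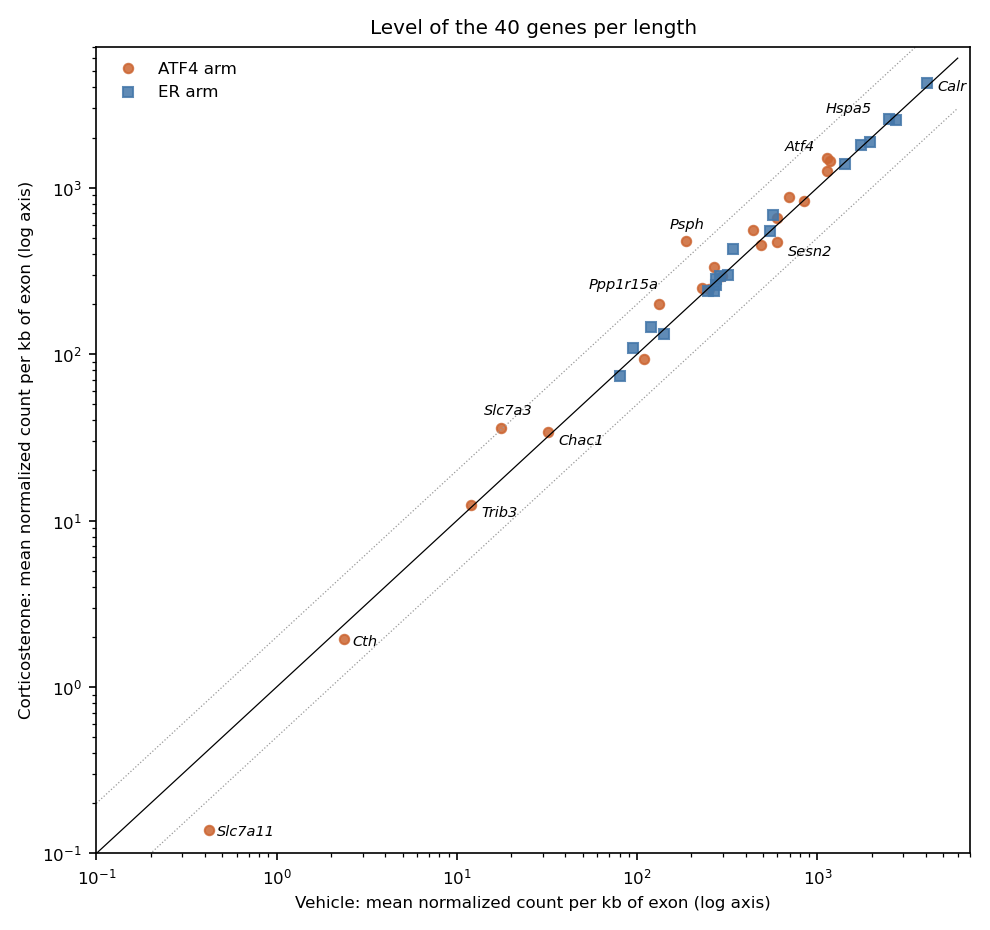
Mean normalized count per kilobase of exon of the 40 genes, vehicle on the horizontal and corticosterone on the vertical axis (both log axes, 3 libraries each). The solid line marks equal levels and the dotted lines a 2-fold difference. ER-arm genes (squares) lie close to the solid line from *Ern1* at 79.9 to *Calr* at 4061 per kilobase with vehicle, and *Psph* and *Slc7a3* lie above the upper dotted line or on it.

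Of the 7 genes grouped as regulators in the ATF4 arm, 2 were higher, 1 was lower and 4 did not pass the test. This group holds *Atf4* and also targets of ATF4 such as *Trib3*. *Atf4* (ENSMUSG00000042406, chromosome 15, 80255184 to 80257541, plus strand, in coordinates of GRCm38 as throughout) encodes the transcription factor that gives the arm its name. The 3 vehicle libraries had normalized counts of 2910.3, 2595 and 2852 and the 3 corticosterone libraries of 3312, 3490.1 and 3426. All 3 corticosterone libraries lay above the highest vehicle library. The log2 fold change was 0.29, with a standard error (SE) of 0.05 (limma adjusted p = 0.00036). *Ppp1r15a* (ENSMUSG00000040435, chromosome 7, 45522916 to 45526268, minus strand) encodes GADD34, the subunit that directs a phosphatase to eIF2α. It had 385, 385 and 394 with vehicle and 578, 527 and 668 with corticosterone, a log2 fold change of 0.60 (SE 0.08, limma adjusted p = 5e-05). The vehicle libraries were nearly equal, while the third corticosterone library was the highest. *Sesn2* (ENSMUSG00000028893, chromosome 4, 132492032 to 132510501, minus strand) encodes sestrin 2, a leucine-binding inhibitor of mTORC1. Its values were 1928, 2299 and 2003 with vehicle and 1562, 1703 and 1677 with corticosterone, all 3 below the vehicle libraries. The log2 fold change was -0.33 (SE 0.06, limma adjusted p = 0.001).

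The genes of this group that did not pass the test include those best known as signs of a strong stress response. *Ddit3* (ENSMUSG00000025408, chromosome 10, 127290774 to 127296288, plus strand) encodes CHOP, a factor of stress-induced cell death, and had 452, 426 and 416 with vehicle and 425, 446 and 388 with corticosterone. The groups overlapped, and the 95% interval of its log2 fold change ran from -0.20 to 0.12. The pseudokinase gene *Trib3*, a target of both ATF4 and CHOP, had 30.8, 23.2 and 22.8 with vehicle and 28.9, 27.6 and 23.0 with corticosterone. *Chac1*, which encodes a glutathione-degrading enzyme, had 56.8, 54.8 and 45.5 with vehicle and 49.2, 59.6 and 57.6 with corticosterone. With 18 to 71 reads per library behind *Trib3* and *Chac1*, their intervals were wide, from -0.56 to 0.68 and from -0.33 to 0.50. The ATF4-related factor gene *Atf5* had a log2 fold change of -0.03 (interval -0.15 to 0.10) and overlapping groups. Exons of *Ddit3* and of the methionyl-tRNA synthetase gene *Mars* overlap on opposite strands over 3.97% of the exon bases of *Ddit3*, and the strand used in counting is not given in the sources used here. Another annotated gene entry, also named *Ddit3*, overlaps on the same strand over 6.13% of these bases, whatever the strand setting.

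Serine and one-carbon metabolism held the largest change among the members that passed the test. Of its 5 genes, 3 were higher and 2 did not pass the test. *Psph* (ENSMUSG00000029446, chromosome 5, 129765558 to 129787449, minus strand) encodes phosphoserine phosphatase, the enzyme of the last step of serine synthesis. Its normalized count was 870.1, 777 and 777 with vehicle and 2043, 2021 and 2103 with corticosterone. The lowest corticosterone library was more than 2-fold above the highest vehicle library. The fold change was 2.55 (95% interval 2.35 to 2.76, log2 1.35, SE 0.06, limma adjusted p = 4.7e-11). Leaving out single libraries kept its log2 fold change between 1.32 and 1.40. The chaperonin gene *Cct6a* on the opposite strand covers 10.4% of the exon bases of *Psph*, and *Cct6a* itself had 4447 ± 370.1 with vehicle and 4434 ± 123 with corticosterone (SD, n = 3 each), with an adjusted p of 0.99.

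The enzymes before *Psph* in the same pathway had log2 fold changes nearer to 0. *Phgdh* (ENSMUSG00000053398, chromosome 3, 98313170 to 98339990, minus strand), which encodes the first enzyme of serine synthesis, had 2838, 2819 and 2727 with vehicle and 3098, 3253 and 3013 with corticosterone. It passed the test with a log2 fold change of 0.16 (SE 0.04, limma adjusted p = 0.02), but not in 7 of 18 other settings. Without vehicle replicate 3, corticosterone replicate 1 or corticosterone replicate 2 its adjusted p was 0.12, 0.071 and 0.11. Of its 31-base stretches, 56.3% also lie in transcripts of other genes, 44.8% in those of *Gm7901*, so that its reads may be shared. *Psat1*, the enzyme between them, did not pass, at 2061 ± 61.5 (SD, n = 3) under vehicle and 1928 ± 93.6 (SD, n = 3) under corticosterone (log2 interval -0.20 to 0.01). *Shmt2* (ENSMUSG00000025403, chromosome 10, 127517123 to 127522444, minus strand), which splits serine into glycine and a one-carbon unit in mitochondria, had 2172, 2128 and 2157 with vehicle and 2725, 2759 and 2669.9 with corticosterone. Here the groups lay far apart relative to their spread, with a log2 fold change of 0.34 (SE 0.04, limma adjusted p = 2.1e-05). *Mthfd2*, the mitochondrial folate enzyme of the following step, had 868, 701 and 827 with vehicle and 878, 865 and 859.7 with corticosterone and did not pass (adjusted p = 0.31).

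Of the 4 other genes of amino acid synthesis, 1 was higher. *Asns* (ENSMUSG00000029752, chromosome 6, 7675169 to 7693254, minus strand) encodes asparagine synthetase, a classic ATF4 target with a CARE core in its promoter. It had 789.8, 678 and 714 with vehicle and 897, 900.1 and 931 with corticosterone, with no overlap and a log2 fold change of 0.33 (SE 0.06, limma adjusted p = 0.0015). The proline synthesis genes lay on opposite sides of 0 and neither passed. *Aldh18a1* had 2559, 2188 and 2535 with vehicle and 2729, 2601 and 2693 with corticosterone (log2 0.14, adjusted p = 0.11). *Pycr1* had 414, 474 and 395 with vehicle and 395, 338 and 367 with corticosterone (log2 -0.22, adjusted p = 0.1). In both genes the groups lay close to each other without overlapping. *Cth*, the cysteine-forming enzyme of transsulfuration, rested on 4 to 8 reads per library and could not be resolved at this depth.

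Of the 5 amino acid transporters, 3 were higher and 2 did not pass the test. *Slc7a5* (ENSMUSG00000040010, chromosome 8, 121881150 to 121907694, minus strand) encodes LAT1, a carrier of leucine and other large neutral amino acids, and *Slc3a2* (ENSMUSG00000010095, chromosome 19, 8706882 to 8723369, minus strand) encodes the heavy chain with which LAT1 forms its dimer. *Slc7a5* had 1692, 1579 and 1631 with vehicle and 2059, 2068 and 2088 with corticosterone. *Slc3a2* had 4079, 3952 and 3912 with vehicle and 5156, 5273 and 5420.4 with corticosterone. Both partners rose, with log2 fold changes of 0.34 (SE 0.05, limma adjusted p = 4.4e-05) and 0.41 (SE 0.04, limma adjusted p = 1.4e-06). *Slc7a3* (ENSMUSG00000031297, chromosome X, 101079210 to 101086020, minus strand) encodes CAT3, a carrier of arginine and lysine. It had 69.7, 64.1 and 65.2 with vehicle and 119, 160.1 and 130.5 with corticosterone, from 63 to 145 reads per library. The groups did not overlap, and the fold change was 2.04 (95% interval 1.63 to 2.55, limma adjusted p = 0.00011). Leaving out single libraries moved its log2 fold change between 0.91 and 1.12.

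The remaining transporters did not pass the test. *Slc38a2*, the neutral amino acid carrier SNAT2, had 2543, 2444 and 2833 with vehicle and 2469, 2761 and 2593 with corticosterone, with overlapping groups and a log2 interval from -0.12 to 0.12. *Slc7a11*, the light chain of the cystine and glutamate exchanger that also pairs with *Slc3a2*, had 5.68, 7.72 and 4.14 with vehicle and 2.14, 1.10 and 2.56 with corticosterone. These values rest on 21 reads in the vehicle libraries together and 5 in the corticosterone libraries. The ratio of the pooled reads was 0.318 (exact 95% interval 0.0936 to 0.865, counting error only). The limma test did not call it (adjusted p = 0.24).

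**Figure D3:**
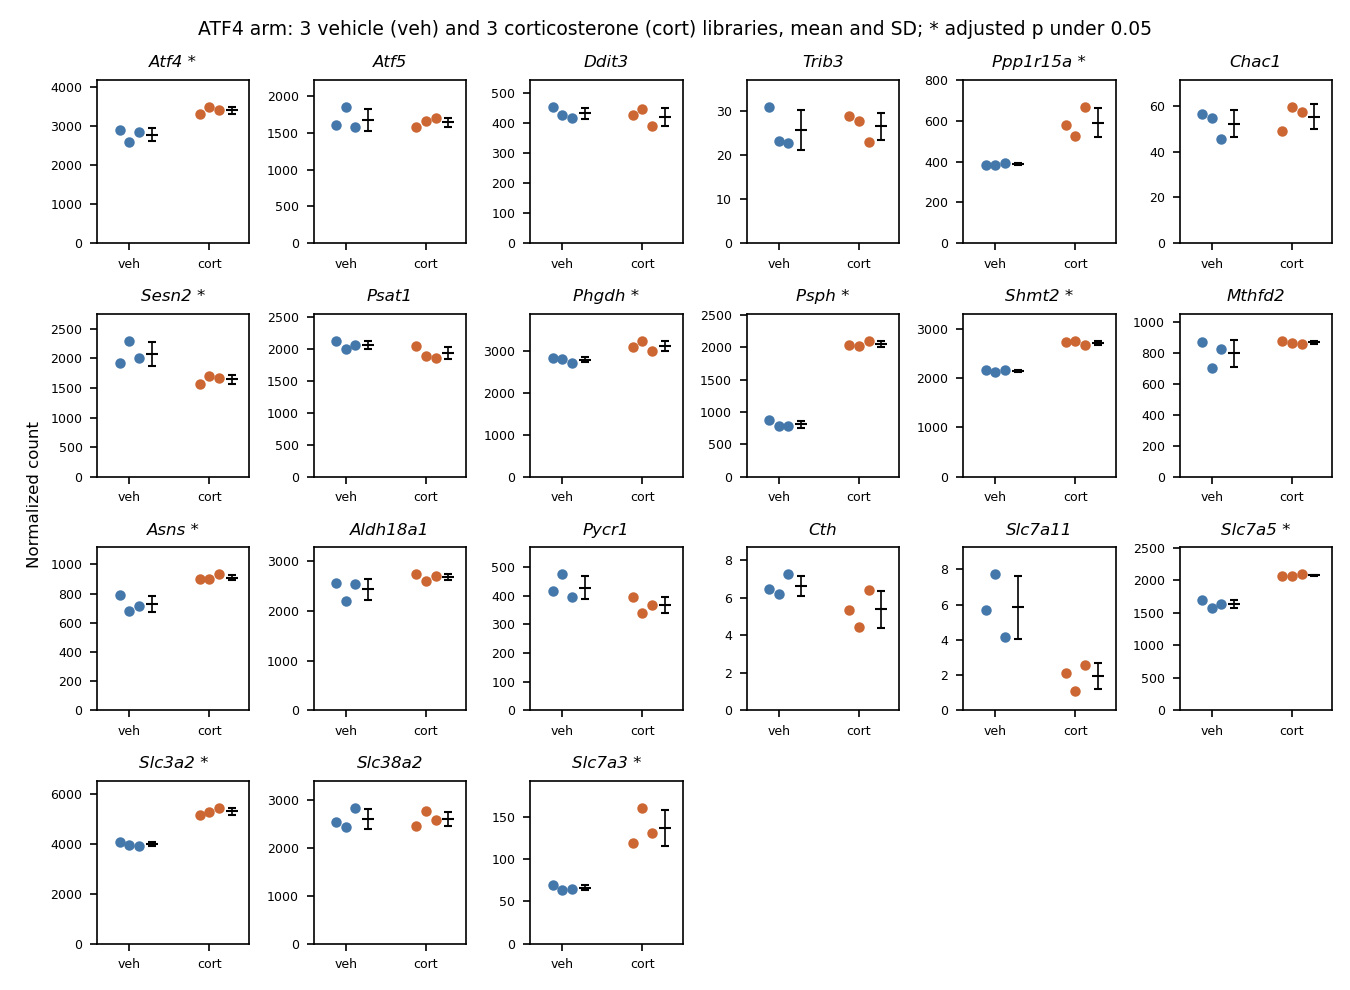
Normalized count of the 21 genes of the ATF4 arm in each of the 3 vehicle (blue) and 3 corticosterone (red) libraries, with mean and SD beside the points; each panel has its own axis from 0 and an asterisk marks an adjusted p under 0.05. *Psph* rises from at most 870.1 to at least 2021, while the points of *Ddit3*, *Trib3* and *Chac1* overlap.

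Of the 4 sensors and factors in the ER arm, 2 were higher. *Atf6* (ENSMUSG00000026663, chromosome 1, 170704674 to 170867771, minus strand) encodes the sensor that is cut in the Golgi to free a transcription factor. It had 1046, 1145 and 1102 with vehicle and 1384, 1279 and 1343 with corticosterone, a log2 fold change of 0.28 (SE 0.05, limma adjusted p = 0.0013). *Xbp1* (ENSMUSG00000020484, chromosome 11, 5520659 to 5525893, plus strand), whose RNA is spliced by IRE1, had 1927, 1662 and 1968 with vehicle and 2197, 2182 and 2316 with corticosterone. The groups were apart in both genes. The log2 fold change of *Xbp1* was 0.27 (SE 0.06, limma adjusted p = 0.0037), and without corticosterone replicate 3 its adjusted p was 0.075. The genes of the other sensors did not pass the test, with 848 ± 37.1 (SD, n = 3) and 801 ± 59.9 (SD, n = 3) for *Eif2ak3* (PERK) and 653 ± 66.1 (SD, n = 3) and 602 ± 50.4 (SD, n = 3) for *Ern1* (IRE1) with vehicle and corticosterone, respectively. Their log2 fold changes were -0.08 (interval -0.22 to 0.05) and -0.12 (interval -0.29 to 0.06).

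Among the 12 chaperones and folding factors, 1 was higher, 11 did not pass the test and 0 were lower. *Hspa5* (ENSMUSG00000026864, chromosome 2, 34771970 to 34777547, plus strand) encodes BiP, the abundant ER chaperone used as the standard gauge of the unfolded protein response. Its normalized count was 10814, 9832 and 10827 with vehicle and 10882, 10832 and 10972 with corticosterone. The groups did not overlap, but the lowest corticosterone library stood directly above the highest vehicle library. The fold change was 1.04 (95% interval 0.977 to 1.11, adjusted p = 0.46). *Hsp90b1*, the ER paralog of HSP90, had 11528, 10351 and 11126 with vehicle and 10419.5, 10468 and 10053 with corticosterone. *Calr* and *Canx* encode the lectin chaperones calreticulin and calnexin. *Calr* had 12069, 11035 and 11979.9 with vehicle and 12414, 11896 and 12561 with corticosterone. *Canx* had 9607, 8678 and 9160.2 with vehicle and 8722, 9094 and 8633 with corticosterone. In all 3 genes the second vehicle library was the lowest of its group and the groups overlapped. Their log2 intervals ran from -0.02 to 0.16 for *Calr*, from -0.14 to 0.04 for *Canx* and from -0.18 to just under 0 for *Hsp90b1*. The adjusted p of *Hsp90b1* was 0.19, and 0.027 without vehicle replicate 2.

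The 1 folding gene that rose was *Dnajc3* (ENSMUSG00000022136, chromosome 14, 118937976 to 118981697, plus strand), which encodes p58IPK, a co-chaperone of BiP also known as an inhibitor of PERK. It had 1759.6, 1725 and 1771 with vehicle and 2209.8, 2267 and 2116 with corticosterone. The groups were well apart, with a log2 fold change of 0.33 (SE 0.05, limma adjusted p = 6.9e-05). *Dnajb9*, another co-chaperone of BiP and a target of spliced XBP1, had 253, 245 and 224 with vehicle and 309, 279 and 243 with corticosterone. Replicate 3 was the lowest library in both groups, the groups overlapped and the test was not passed (log2 0.20, adjusted p = 0.23).

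The disulfide isomerase genes *Pdia4* and *Pdia6* had log2 fold changes of 0.04 (interval -0.07 to 0.14) and -0.02 (interval -0.13 to 0.08). *Hyou1*, the exchange factor of BiP, averaged 2300.3 ± 77.5 (SD, n = 3) under vehicle and 2157 ± 66.8 (SD, n = 3) under corticosterone (interval -0.19 to 0.01). *Sdf2l1*, *Creld2* and *Manf*, small ER proteins that rise sharply in ER stress, had log2 fold changes of -0.07, 0.02 and 0.02. Their intervals ran from -0.27 to 0.12, from -0.10 to 0.14 and from -0.11 to 0.14. Apart from *Dnajb9*, no interval of an uncalled folding gene reached a log2 change of 0.2 upward. The 12 genes together took 0.278 to 0.306% of all reads in the vehicle libraries and 0.287 to 0.289% in the corticosterone libraries, within the vehicle range. The 21 genes of the ATF4 arm took 0.139 to 0.144% with vehicle and 0.158 to 0.163% with corticosterone, without overlap. Such sums follow the most abundant members, such as *Slc3a2*, and 11 of these 21 genes did not pass the test. No background of other gene lists was computed for these sums.

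Of the 3 genes of ER-associated degradation, 1 was lower. *Edem1* (ENSMUSG00000030104, chromosome 6, 108828641 to 108859356, plus strand), which directs misfolded glycoproteins to degradation, had 1719, 1758 and 1715 with vehicle and 1541, 1525 and 1594 with corticosterone. All corticosterone libraries lay below the vehicle libraries, by a log2 fold change of -0.16 (SE 0.05, limma adjusted p = 0.028). The call was near its limit and was kept without corticosterone replicate 3 only, the adjusted p being 0.057, 0.060 and 0.072 without vehicle replicates 1, 2 and 3, and 0.10 and 0.098 without corticosterone replicates 1 and 2. *Herpud1*, with a CARE core and an ERSE-II in its promoter, had 632, 642 and 639 with vehicle and 668, 623 and 681 with corticosterone, which overlapped. *Sel1l*, the partner of the ubiquitin ligase HRD1, averaged 2119 ± 70.3 (SD, n = 3) and 2056 ± 49.8 (SD, n = 3) in the same order. Neither passed the test, with log2 intervals from -0.09 to 0.17 and from -0.14 to 0.06.

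**Figure D4:**
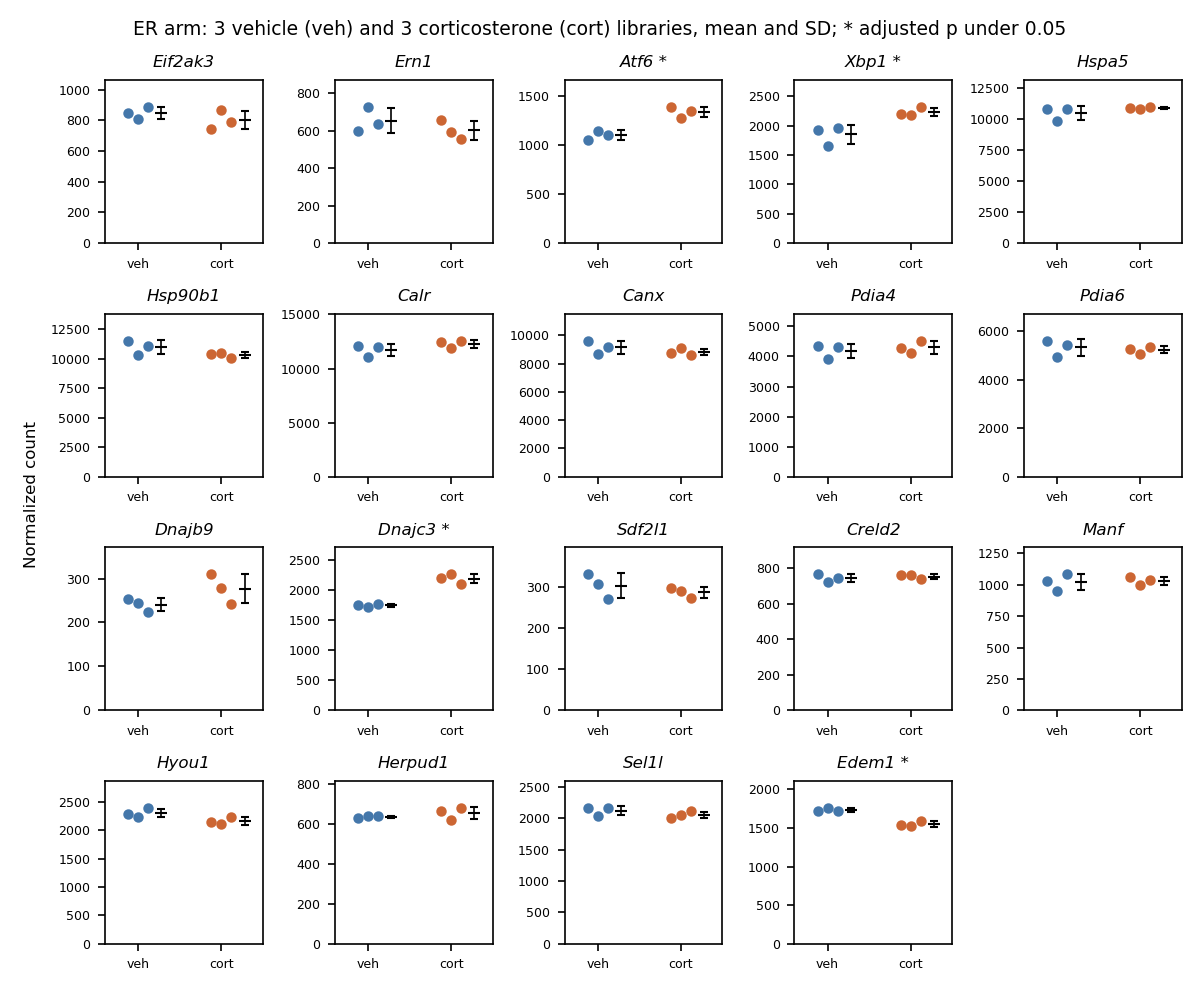
Normalized count of the 19 genes of the ER arm in each of the 3 vehicle (blue) and 3 corticosterone (red) libraries, with mean and SD beside the points; each panel has its own axis from 0 and an asterisk marks an adjusted p under 0.05. *Atf6*, *Xbp1* and *Dnajc3* are higher and *Edem1* lower, while *Hspa5* lies between 9832 and 10972 in all 6 libraries.

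In the 14 called genes the groups did not overlap, for which the two-sided exact permutation test gives p = 0.1, the smallest that 3 against 3 libraries allow. Non-overlapping groups were seen in 13 of 21 genes of the ATF4 arm and 6 of 19 of the ER arm, against 29.6% of all genes and 49% of the more abundant genes. Without a trend in the prior variance, 7 of the 14 genes lost the call, namely *Atf4*, *Asns*, *Sesn2*, *Phgdh*, *Atf6*, *Xbp1* and *Edem1*, with adjusted p from 0.095 to 0.24. *Psph*, *Slc3a2*, *Slc7a5*, *Slc7a3*, *Shmt2*, *Ppp1r15a* and *Dnajc3* were called in all 18 other settings tried at that threshold.

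Further genes of these pathways were taken from 7 lists of 110 genes found in the table. Among 10 kinases and factors of eIF2, 3 were higher and 1 was lower, and with the other scalings 1 or 2 were higher and 1 lower. The called share was 40%, against 16.7% of all genes and 32.6% of the more abundant genes. *Eif2ak4*, which encodes the amino acid sensor GCN2, rose from 679 ± 23.0 (SD, n = 3) to 858 ± 33.6 (SD, n = 3) (log2 0.34, limma adjusted p = 0.00058). *Eif2ak2*, which encodes the kinase PKR that responds to double-stranded RNA, fell from 1219 ± 26.8 (SD, n = 3) to 1048 ± 15.6 (SD, n = 3) (log2 -0.22, adjusted p = 0.0056). The other called genes, named after their values were seen, were *Eif2b3* and *Ppp1r15b*, which lost the call in 5 and 4 of the 6 leave-one-out fits, with adjusted p up to 0.15 (both without vehicle replicate 3).

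Among 21 other partners and targets of ATF4, 9 were higher and 4 lower, with a median log2 fold change of 0.09. The called share was 61.9%, against 16.7% of all genes and 32.6% of the more abundant genes. *Ddit4*, which encodes the mTORC1 inhibitor REDD1 and is also known as a glucocorticoid target, had 6535, 6218 and 6210.2 with vehicle and 11849.9, 11620.2 and 13380.2 with corticosterone. This was a log2 fold change of 0.96 (SE 0.05, limma adjusted p = 7.2e-10), with all corticosterone libraries far above the vehicle libraries. The neutral amino acid transporter gene *Slc1a5* rose from 1759 ± 46.6 (SD, n = 3) to 2694 ± 108 (SD, n = 3) (log2 0.61, adjusted p = 7e-08). The stress factor gene *Nupr1* rose from 231 ± 35.9 (SD, n = 3) to 343 ± 30.8 (SD, n = 3) (log2 0.57, adjusted p = 0.0015). In the other direction, the lipoprotein receptor gene *Vldlr* fell from 200.3 ± 27.7 (SD, n = 3) to 68.3 ± 9.30 (SD, n = 3) (log2 -1.55, adjusted p = 9e-07). *Gdf15*, which encodes a stress-induced secreted factor, had 108, 174 and 139.6 with vehicle and 66.4, 66.3 and 47.3 with corticosterone, a log2 fold change of -1.22 (SE 0.19, adjusted p = 0.0002). In *Ddit4* and *Gdf15* the groups were apart in opposite directions. *Fgf21* had at most 3 reads in any library and is given no fold change, but it is included in the median of the 21 genes.

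Among 20 cytosolic aminoacyl-tRNA synthetases, which charge tRNAs with amino acids and many of which are ATF4 targets, 7 were higher and 0 lower, against the 8.49% of all genes and the 17.1% of the more abundant genes that were higher. Their changes were small, with a median log2 fold change of 0.09 and the largest at 0.31 for *Iars* (adjusted p = 0.0024, and 0.057 without corticosterone replicate 3). The lowest was -0.06 for *Dars*, which did not pass. Of the 7 calls, 6 were lost in at least 1 leave-one-out fit, and that of the valyl-tRNA synthetase gene *Vars*, named after its values were seen, was kept in all 6. With the other scalings 3 to 5 of the 20 genes were higher and 0 lower.

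The shares called in 4 further lists of ER genes were 18.2%, 8.33%, 20% and 20% in the order given here. Of all genes 16.7% were called, and of the more abundant genes 32.6%. All genes of the last 2 lists reached the mean of the more abundant genes. Among 22 other folding genes, 0 were higher and 4 lower, with a median of -0.08. The disulfide isomerase gene *Pdia5* had 432, 445 and 417 with vehicle and 339, 332 and 288 with corticosterone (log2 -0.43, adjusted p = 0.0011), and the other lower genes, named after their values were seen, were *Txndc5*, *Fkbp14* and *Fkbp10* at -0.22, -0.18 and -0.15. *Fkbp14* and *Fkbp10* lost the call without vehicle replicate 3 (adjusted p = 0.068 and 0.0503) and without a corticosterone library, replicate 3 for *Fkbp14* (0.056) and replicate 1 for *Fkbp10* (0.060). The highest value of the list was 0.18 for *Fkbp11*, which did not pass. Among 12 other degradation genes 1 was lower, *Vcp*, at -0.13, and it lost the call in each of the 6 leave-one-out fits. The extremes of that list, *Derl3* at 0.56 from 7 to 15 reads per library and *Derl2* at -0.16, did not pass the test. With the other scalings 5 to 7 of the folding genes and 2 to 6 of the degradation genes were lower and 0 of either higher.

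Among 15 translocation and transport genes 1 was higher and 2 were lower, and with the other scalings 0 were higher and 3 or 4 lower. *Ssr2*, a subunit of the translocon-associated complex, fell from 3084 ± 50.0 (SD, n = 3) to 2530.4 ± 52.2 (SD, n = 3) (log2 -0.29, adjusted p = 0.00011) and the translocon subunit gene *Sec61b*, named after its values were seen, fell by 0.19. *Ssr4*, of the same complex as *Ssr2*, was higher by 0.14 (adjusted p = 0.047) and lost the call in 5 of the 6 leave-one-out fits. Among 10 other ER stress factors 2 were higher and 0 lower, with 1 or 2 lower under the other scalings. *Wfs1*, which encodes wolframin, an ER membrane protein, had 935, 809.6 and 839.9 with vehicle and 1525, 1564 and 1493 with corticosterone, a log2 fold change of 0.83 (SE 0.06, adjusted p = 3e-08). It was the largest change among the ER genes of these lists that passed the test, and its groups were far apart. *Tmbim6*, which encodes the ER membrane protein BAX inhibitor 1 and was named after its values were seen, was higher by 0.29 (adjusted p = 3.9e-05), and the lowest value was -0.16 for *Traf2*, which did not pass.

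**Figure D5:**
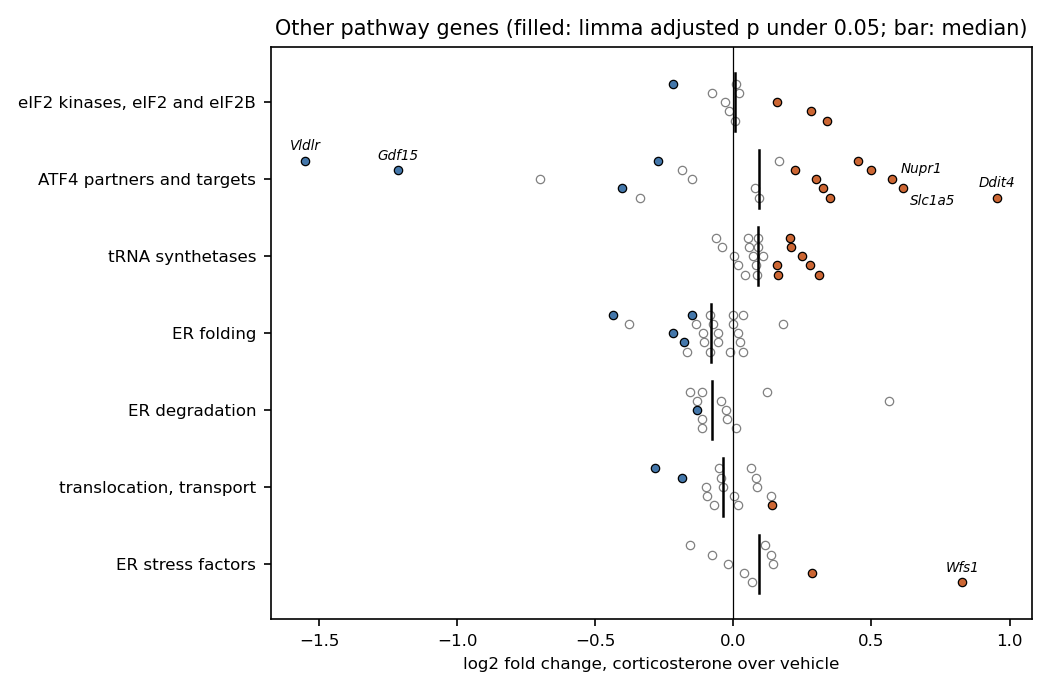
Log2 fold change, corticosterone over vehicle, of the genes of 7 further lists (1 point a gene, 3 libraries a group, spread vertically for legibility), with the median of each list as a bar. Filled points have an adjusted p under 0.05 (red higher, blue lower). *Fgf21*, at or below 3 reads in every library, is not drawn but is included in the median of its list. *Ddit4* at 0.96 and *Wfs1* at 0.83 stand highest, *Vldlr* at -1.55 and *Gdf15* at -1.22 lowest.

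Some markers of other cell types moved with the treatment. Of 6 adipocyte markers, 2 were in the table, with a summed normalized count of 7.72 to 21.1 with vehicle and 108 to 133 with corticosterone. *Fabp4* had a log2 fold change of 3.14, while *Plin1* had 0 reads in every vehicle library and at most 2 with corticosterone. Of 6 chondrocyte markers, 4 were in the table, with sums of 3543 to 3956 and 2987 to 3017. *Col2a1* and *Sox9* were lower (log2 fold changes of -0.80 and -0.16) and *Col10a1* was higher (0.73). The sums were 30.9 to 37.2 and 39.8 to 40.9 for 3 of 6 myoblast markers. For 4 of 6 macrophage markers they were 340.3 to 388 and 295 to 340.3, and for 4 of 6 endothelial markers 22.8 to 47.0 and 39.8 to 47.3, respectively. Of the macrophage markers 1 was lower and 0 were higher, and 0 of the myoblast and endothelial markers were called. The part of these markers, and of the lower osteoblast markers, in the changes of the 40 genes was not tested.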

How the data were processed

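The RNA-seq libraries of 3 vehicle and 3 corticosterone cultures of MC3T3-E1 cells were analysed. The values deposited by the authors form 1 table, named FPKM, with a signal for each gene in each library. Its values are whole multiples of 1 step per library (100% of values within 0.1 read), that is, normalized counts that the authors made by dividing read counts by a size factor. The aligner, counter and strand setting are not given in the sources used here, and the submitters' processing notes name mm10. The study tested with DESeq2. Passages are given differently in the labels and the methods, so passage was not used.

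The 40 genes, the other lists and the motifs were chosen with earlier results of these data known. Symbols and exon lengths came from GENCODE vM21. Groups were compared with limma 3.58.1 (lmFit, eBayes with a variance trend, R 4.3.3) on log2(value + 0.1), two-sided, with Benjamini-Hochberg adjustment over 24016 genes. A filter at a mean of 0.1 removed no gene. Fold changes are on this scale, which matters for genes with few reads. Intervals are at 95%. Pathway genes were named if their adjusted p was under 0.05 and their absolute log2 fold change over 0.5, or if they had the largest change of their list in either direction, and exceptions are stated. Intervals from counts cover counting error only. Shared sequence was gauged by 31-mers in transcripts of other genes.

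Replicate numbers are shared by both groups in the labels, but no label ties them to paired cultures. No block was used, since the study's methods name none. The deviations of same-numbered libraries from their group means correlated at -0.044, 0.001 and 0.023 over 13880 genes. These values do not exclude pairing, since deviations from a mean of 3 libraries also hold counting error. Alternatives were other pseudocounts (1 and 0.01), filters, scalings and prior variances, the block, each library left out, edgeR 4.0.16 and DESeq2 1.42.0 on recovered reads, and the study's threshold. The fits were tested on simulated data in which 200 genes changed by a log2 fold change of 1, up or down. That simulation does not gauge smaller changes, such as most of those called here. Python 3.11.15, pandas 2.3.3, scipy 1.17.1 and matplotlib 3.10.9 were used.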

Additional observations from a re-analysis of the deposited data

How the results depend on the processing

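No log2 fold change of the 40 genes changed sign among those called, and 18 other settings were compared at an adjusted p under 0.05. The study's threshold, which adds an absolute log2 fold change over 1, left 2 genes higher and 0 lower in the ATF4 arm, and 0 higher and 0 lower in the ER arm. Without a variance trend the ATF4 arm had 6 genes higher and 0 lower, and the ER arm 1 higher and 0 lower. With upper-quartile scaling 3 genes of the ER arm were lower (*Edem1*, *Hsp90b1* and *Hyou1*), with scaling to the same total 2 (*Edem1* and *Hsp90b1*) and with quantile normalization 3 (*Edem1*, *Hsp90b1* and *Canx*). Scaling to the same total also gave 2 lower genes in the ATF4 arm, *Sesn2* and *Pycr1*. The cause of these differences was not tested. With 1 library left out, 0 to 1 genes of the ER arm were lower, *Edem1* without corticosterone replicate 3 and *Hsp90b1* in its place without vehicle replicate 2. *Aldh18a1* was called with a robust prior variance (adjusted p = 0.022). With the replicate block the arms had 9 and 3 genes higher and 1 and 1 lower, as without it, and all 40 genes kept their call, while 2012 of all genes were higher and 1893 lower. With DESeq2 no call of the 40 genes changed, but *Slc7a11* received no adjusted p there and counts as not called. edgeR gave the same call for the 38 genes it tested, leaving out *Cth* and *Slc7a11* for their few reads. Depth limits the values of *Slc7a11*, *Cth*, *Trib3* and *Chac1*.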
